A study of Mus musculus with 20 samples.

Results

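The 32 genes described here encode the enzymes of the citrate cycle, the carrier and complex that bring pyruvate into it, and the transaminases and carriers of the shuttles that link it to the cytosol. They were chosen by name, and every name matched 1 row of the 55385 gene rows in the deposited table. All 32 passed the filter on low counts that kept 18905 genes for testing, with at least 244 counts of each in every library. The RNA came from mouse liver, labelled week 24, from 4 groups of 5 libraries. They are wild-type (WT) mice on chow, WT mice on a high-fat diet (HFD), and mice whose titles name the genotype LXRα-/- on each of the same diets. LXRα, encoded by Nr1h3, is a nuclear receptor that responds to oxysterols and controls genes of cholesterol and fatty acid metabolism. The genotype field instead reads LXR knockdown, and no strain, sex, promoter or deleted exon is named in the labels.

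Pyruvate from glycolysis enters mitochondria through a carrier and is turned into acetyl-CoA by the pyruvate dehydrogenase complex, which kinases switch off by phosphorylation. The cycle joins acetyl-CoA to oxaloacetate as citrate and oxidises it back to oxaloacetate, feeding electrons to the respiratory chain. In liver the same enzymes also run partly outward, because malate, aspartate and citrate leave the mitochondria to serve glucose synthesis, the urea cycle, lipid synthesis and the transfer of reducing equivalents by the malate-aspartate shuttle.

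Libraries of WT chow differed from the remaining 15 in composition. Transcripts encoded by the mitochondrial genome took 3.89% to 5.67% of the counts in WT chow, 9.77% to 19.3% in WT HFD, 18.2% to 29.6% in labelled LXRα-/- on chow and 14.1% to 20.4% in labelled LXRα-/- on HFD. No other group overlapped WT chow in this share, so the share and the WT chow group cannot be told apart. A clock measure, the log2 ratio of Arntl and Npas2 to Dbp and Per3, ran from -6.55 to -4.70 in WT chow and from -3.96 to 0.53 in WT HFD. It ran from -5.64 to -1.38 in labelled LXRα-/- on chow and from -7.19 to -1.28 in labelled LXRα-/- on HFD. Total counts were 75549139 to 108889938 per library, so the spread between libraries rather than counting error limited the precision. The targeted gene did not separate the genotypes. Nr1h3 held 88.7 to 125 CPM (counts scaled to library totals) in WT chow and 40.3 to 69.9 in WT HFD, against 22.3 to 186 in labelled LXRα-/- on chow and 28.9 to 219.5 in labelled LXRα-/- on HFD. Directions by genotype therefore rest on the labels.

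Hepatocyte markers were abundant in every library, and some markers of hepatocytes and of other cells differed between groups. The summed level of 8 hepatocyte markers was 36280 to 98920 CPM in WT chow and 45930 to 138500 in the other groups, with Alb at 20660 or more everywhere. Of these 8 markers, 3 were lower and none higher in labelled LXRα-/- than in WT on chow, and 2 were lower and 1 higher in WT on HFD than on chow. Of all genes tested, 21.0% were lower and 22.3% higher in the first comparison, and 15.0% and 14.3% in the second. The same shares apply to the marker counts that follow for these comparisons. Adipocyte markers, checked because the protocol text speaks of an adipose type, summed to 0.482 to 53.7 CPM over all libraries, and at both ends of that range most was Cidec. Adipoq reached 8.57 CPM in WT HFD, 1.58 in WT chow and at most 0.172 in the labelled LXRα-/- groups. Plin1 reached 5.06, 0.41 and 0.0794 CPM in the same order. Both were at 0 in at least 1 library of every group. All 7 Kupffer cell markers were lower in labelled LXRα-/- than in WT on chow, with sums of 37.7 to 92.0 against 178 to 290 CPM, and summed to 85.1 to 123 in WT HFD and 28.0 to 50.1 in labelled LXRα-/- on HFD. Of 5 B and plasma cell markers, 4 were higher in labelled LXRα-/- than in WT on chow, with sums of 93.6 to 283 against 9.59 to 19.3, and all 5 were higher in WT HFD, which summed to 99.3 to 890. The sum was 97.6 to 161 in labelled LXRα-/- on HFD. Of 5 T and NK cell markers 3 were higher between genotypes on chow and 4 between diets in WT, and of 5 endothelial markers 2 were lower in each. Between genotypes on HFD 0.201% of all genes were lower. So were 4 of the 7 Kupffer cell markers and 1 T and NK cell marker. None of the markers of these lists was at 0 in all libraries. Their part in the results below was not tested, and in whole tissue fewer cells of a type and less RNA per cell cannot be told apart.

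Most of these genes were lower in the labelled LXRα-/- livers than in WT livers on chow. In the edgeR quasi-likelihood test with Benjamini-Hochberg adjustment over all 18905 genes, 20 of the 32 fell and 3 rose, while 21.0% of all genes tested were called lower and 22.3% higher. The median log2 fold change was -0.86 over the 32 genes and 0.08 over all genes. The largest falls were those of Mdh1, Suclg1, Got1 and Mdh2, and the genes that rose were Idh1, Suclg2 and Slc25a10. WT livers on HFD also differed from WT livers on chow, with 17 genes lower and 2 higher against 15.0% and 14.3% of all genes, and a median of -0.60 against 0.02. The 2 that rose were again Idh1 and Suclg2. These comparisons and the interaction share the WT chow libraries, so they are not independent of each other. With the mitochondrially encoded share as a covariate none of the 32 genes passed in them, and of all 18905 genes 1 did, in diet in WT, so this loss is not particular to the set. With the clock measure as a covariate the falls between diets in WT went from 17 to 4, while those of all genes went from 2841 to 1047. The clock measure did not overlap between WT chow and WT HFD, so it and the diet cannot be told apart within WT. The interactions then went from 15 above 0 and 2 below to 3 and 0, and those of all genes from 1936 and 1725 to 381 and 359.

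On HFD, none of the 32 genes passed the threshold between the genotypes in either direction, with edgeR or with DESeq2. Of all genes, edgeR called 0.254% higher and 0.201% lower, and DESeq2 called 303 higher and 230 lower. An unadjusted edgeR p under 0.05 was reached by 4 of the 32 genes and by 2688 of all 18905. Within the labelled LXRα-/- mice none passed between the diets in edgeR or DESeq2, where the background was 0.0159% higher and 0.0% lower in edgeR and 44 and 22 genes in DESeq2. An unadjusted edgeR p under 0.05 was reached by 6 of the 32 and by 1278 of all genes. The interaction, the genotype difference on HFD minus that on chow, was above 0 for 15 genes and below 0 for 2, against 10.2% and 9.12% of all genes. With library totals in place of TMM scaling, 2301 genes had an interaction above 0 and 1234 below it, against 1936 and 1725 with TMM. The genotype calls on HFD then split as 83 higher and 17 lower, against 48 and 38.

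**Figure D1:**
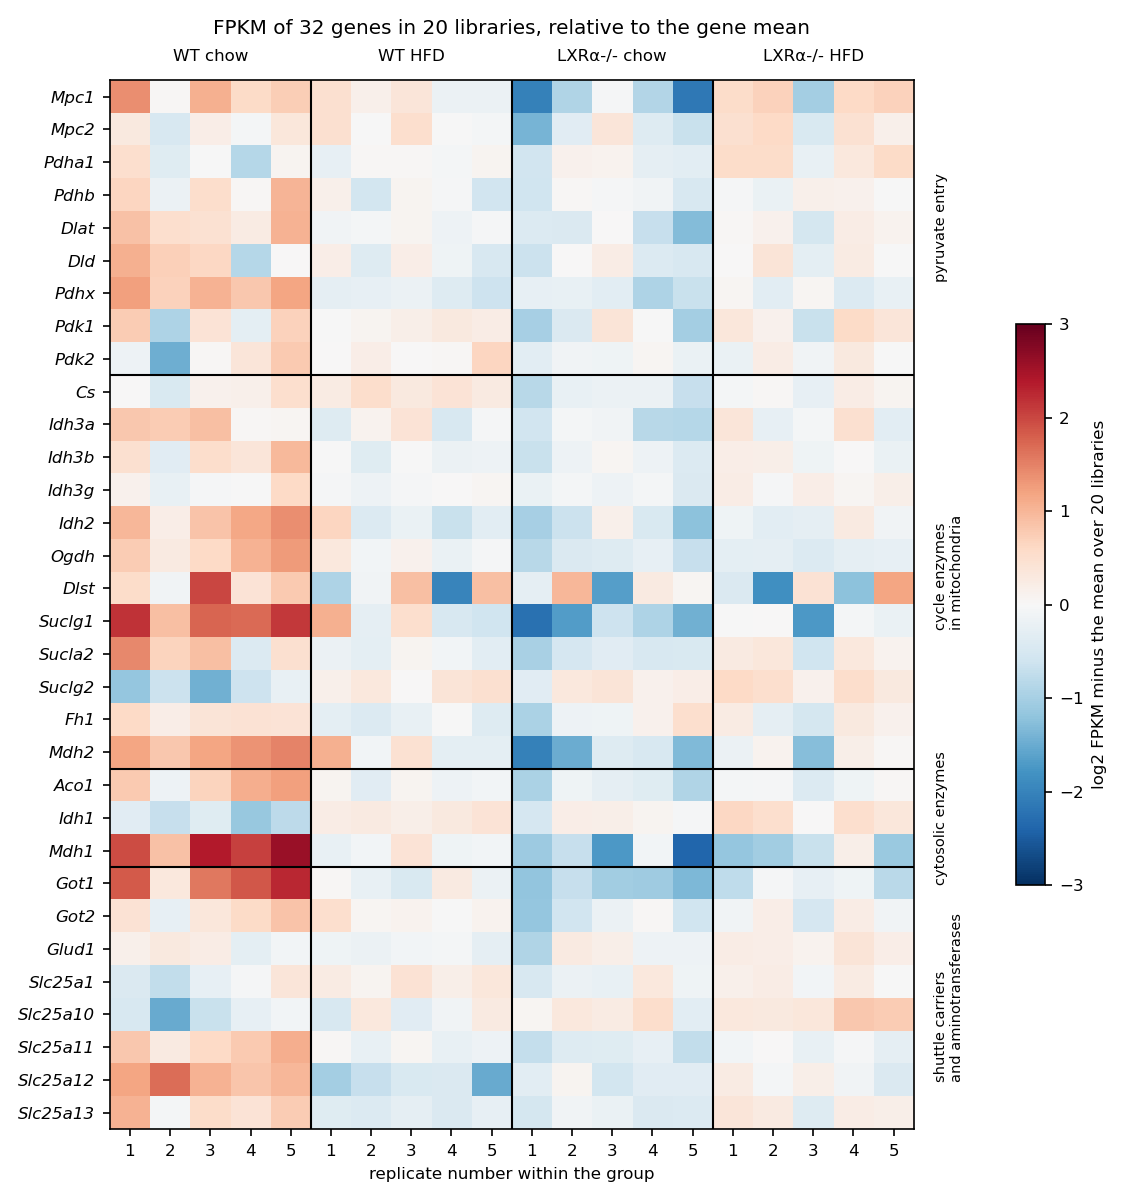
Each cell is the log2 FPKM of 1 gene in 1 library minus that gene's mean over the 20 libraries, with columns grouped by genotype and diet and rows by role. The WT chow columns are mostly above the gene mean, Idh1 and Suclg2 are below it there, and labelled LXRα-/- chow replicates 1 and 5 have the lowest column medians, -0.70 and -0.54.

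In each library, the median of the 32 genes' log2 FPKM relative to the gene mean was 0.756, -0.003, 0.547, 0.369 and 0.768 in WT chow replicates 1 to 5. It lay between -0.12 and 0.08 in WT HFD, between -0.70 and -0.14 in labelled LXRα-/- on chow and between -0.24 and 0.23 in labelled LXRα-/- on HFD. WT chow replicate 2 thus lay within the range of the other groups, while the other 4 WT chow libraries lay above it. The lowest values belonged to labelled LXRα-/- chow replicates 1 and 5, which also had the largest mitochondrially encoded shares of counts, 29.6% and 23.7%. Mitochondrially encoded counts are part of the depth that FPKM is scaled by. A larger share therefore lowers the FPKM of other genes by arithmetic, and these measures are not independent. FPKM, the fragment count divided by gene length and sequencing depth, was higher in WT chow than in all 15 other libraries for 6 of the 32 genes, namely Mdh1, Got1, Pdhx, Dlat, Slc25a11 and Slc25a12. This held for 7.98% of all tested genes. For none of the 32 was WT chow below all other libraries, which held for 5.27% of all tested genes.

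**Figure D2:**
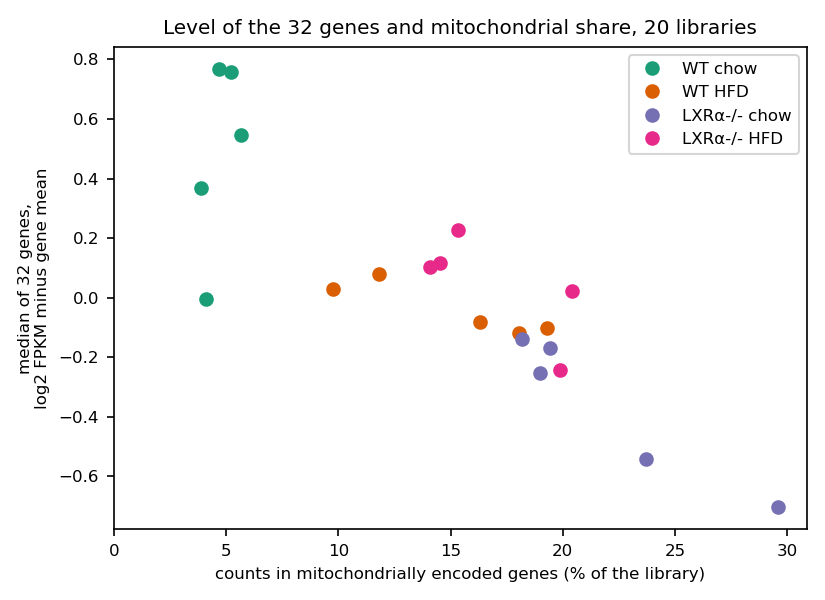
Each point is 1 of the 20 libraries, with the share of its counts in mitochondrially encoded genes on the x axis and the median of the 32 genes, as log2 FPKM minus the gene mean, on the y axis. The WT chow points sit at 3.89% to 5.67% and the other groups at 9.77% to 29.6%, with no overlap. The axes are not independent, because mitochondrially encoded counts are part of the depth that FPKM is scaled by.

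The sequences just before the transcription starts of 4 genes are given because Mdh1 had the largest fall, Got1 the smallest p over the 4 groups, and Idh1 and Suclg2 rose in both comparisons with WT chow. They are the 250 bases before the RefSeq start in GRCm38.p6, read 5′ to 3′ on the gene's strand, which is the minus strand for all 4. Capitals mark CCAAT boxes on either strand, read as ATTGG where they lie on the other strand, and, at the start of the Got1 sequence, the extended monomer motif of nuclear receptors, AAGGTCA.
Mdh1, chr11:21571935-21572184: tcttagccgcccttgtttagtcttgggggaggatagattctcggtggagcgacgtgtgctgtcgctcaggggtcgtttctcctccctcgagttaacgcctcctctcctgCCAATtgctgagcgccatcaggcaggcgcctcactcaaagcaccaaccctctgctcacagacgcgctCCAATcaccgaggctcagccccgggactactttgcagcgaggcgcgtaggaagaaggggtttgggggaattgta
Got1, chr19:43524606-43524855: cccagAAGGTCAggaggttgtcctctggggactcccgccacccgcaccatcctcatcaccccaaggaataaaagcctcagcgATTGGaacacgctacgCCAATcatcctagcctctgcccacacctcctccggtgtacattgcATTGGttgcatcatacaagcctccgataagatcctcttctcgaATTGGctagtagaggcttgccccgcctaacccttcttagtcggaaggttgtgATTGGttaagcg
Idh1, chr1:65186480-65186729: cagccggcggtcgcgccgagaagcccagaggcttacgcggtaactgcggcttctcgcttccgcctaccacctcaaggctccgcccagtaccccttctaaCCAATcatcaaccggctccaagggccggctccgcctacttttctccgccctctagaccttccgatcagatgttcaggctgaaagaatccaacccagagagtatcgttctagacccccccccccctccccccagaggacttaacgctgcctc
Suclg2, chr6:95718847-95719096: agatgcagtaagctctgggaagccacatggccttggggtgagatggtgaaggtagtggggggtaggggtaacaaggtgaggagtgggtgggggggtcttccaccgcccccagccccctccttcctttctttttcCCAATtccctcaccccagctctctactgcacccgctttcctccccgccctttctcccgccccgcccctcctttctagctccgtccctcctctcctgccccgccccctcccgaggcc
The Got1 window held 5 CCAAT boxes, the Mdh1 window 2, and those of Idh1 and Suclg2 1 each. The Mdh1 start of RefSeq lies 433 bases inside the gene start that the deposited table gives, and the others lie within 46 bases. Among the 31 of 32 genes with a window in the table, 17 held CCAAT on either strand (54.8%), against 33.8% of all 32851 windows and 34.9% of those of tested genes. The E-box CACGTG was found before Pdk2, Slc25a1 and Slc25a13 (9.68% of the 31), in 6.02% of all windows and in 7.62% of those of tested genes. AAGGTCA was found before Got1 (3.23% of the 31), in 4.08% of all windows and in 3.22% of those of tested genes. The shares of both motifs among the 31 were near those of tested genes. The LXR element, searched on both strands as AGGTCA, 4 bases of any kind and AGGTCA again, was in none of the 31 windows. It was in 0.0152% of all windows and in 0.0% of those of tested genes. An exact form this rare cannot set the 31 windows apart from others, so nothing is concluded from its absence. These are matches of letters in a short window, and the gene without a window was Idh3a.

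Pyruvate entry was represented by 9 genes, of which 5 fell in labelled LXRα-/- against WT on chow and 3 fell in WT on HFD against chow, with none higher. Of all genes, 21.0% fell and 22.3% rose in the first comparison, and 15.0% and 14.3% in the second. Their median log2 fold change was -0.66 in the first comparison and -0.47 in the second. Mpc1 and Mpc2 encode the subunits of the mitochondrial pyruvate carrier, Pdha1 and Pdhb the subunits that decarboxylate pyruvate, Dlat the acetyltransferase core, Dld the lipoamide dehydrogenase and Pdhx the protein that ties Dld to the core. Pdk1 and Pdk2 are kinases that inactivate the complex.

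Mpc1 (ENSMUSG00000023861, chr17:8282904-8297661, plus strand) had 14.7, 5.78, 11.7, 8.29 and 9.37 FPKM in WT chow replicates 1 to 5 and 7.78, 6.24, 7.21, 4.96 and 4.99 in WT HFD. It had 1.37, 2.98, 5.46, 3.04 and 1.27 in labelled LXRα-/- on chow and 8.2, 9.05, 2.77, 8.47 and 9.11 in labelled LXRα-/- on HFD. Labelled LXRα-/- chow lay below WT chow in every library, and 4 of the labelled LXRα-/- HFD libraries lay within the WT chow range while replicate 3 lay below it. The log2 fold change was -1.84 (SE 0.36, adjusted p = 0.000411) between genotypes on chow, and the interaction was 1.92 (SE 0.50, adjusted p = 0.0106). The diet difference in labelled LXRα-/- was the largest of the 32 genes, 1.303 (SE 0.36, adjusted p = 0.482), and did not pass. A pseudogene 99.7% identical over 330 bases, Mpc1-ps, took 31.6% to 41.5% of the summed counts of both rows in WT chow and 17.2% to 35.7% in the other groups, so the split of reads between them is uncertain. Summing them did not move a Mpc1 call. An opposite-strand row, 4930506C21Rik, reached 20.1% of the sum of both rows, and whether counting used strand is not given in the sources used here.

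Pdhx (ENSMUSG00000010914, chr2:103021075-103073513, minus strand) read 5.83, 4.03, 5.14, 4.39 and 5.66 FPKM in WT chow, 2.07, 2.12, 2.22, 1.92 and 1.62 in WT HFD, 2.1, 2.13, 2, 1.31 and 1.58 in labelled LXRα-/- on chow and 2.59, 2.02, 2.61, 1.88 and 2.13 in labelled LXRα-/- on HFD. Every WT chow library was above every other library. Its log2 fold change was -1.48 (SE 0.16, adjusted p = 7.55e-07) for genotype on chow and -1.29 (SE 0.16, adjusted p = 8.75e-06) for diet in WT. The interaction of Pdhx was 1.44 (SE 0.22, adjusted p = 0.000206).

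Dlat (ENSMUSG00000000168, chr9:50634633-50659780, minus strand) showed the same arrangement at 4.79, 3.73, 3.59, 3.09 and 5.41 FPKM in WT chow, 2.42, 2.53, 2.76, 2.35 and 2.55 in WT HFD, 1.96, 1.94, 2.64, 1.62 and 1.07 in labelled LXRα-/- on chow and 2.68, 2.87, 1.83, 3.05 and 2.84 in labelled LXRα-/- on HFD. All WT chow values again lay above the rest, although WT chow replicate 4 and labelled LXRα-/- HFD replicate 4 nearly met. Genotype on chow gave -1.19 (SE 0.20, adjusted p = 8.55e-05), diet in WT -0.67 (SE 0.20, adjusted p = 0.0144) and the interaction 1.06 (SE 0.28, adjusted p = 0.0105), all as log2 differences. Without WT chow replicate 5 the diet call of Dlat was lost, and over all libraries left out in turn its log2 fold change ran from -0.72 to -0.53.

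The remaining genes of pyruvate entry differed less between groups, and 2 of them passed. Pdhb averaged 19.3 ± 6.3 FPKM in WT chow, 12.5 ± 2.9 in WT HFD, 12 ± 2.26 in labelled LXRα-/- on chow and 14 ± 1.39 in labelled LXRα-/- on HFD (SD, n = 5 each). It fell in both comparisons with WT chow, at -0.70 (SE 0.20, adjusted p = 0.00705) and -0.59 (SE 0.20, adjusted p = 0.0301), and the diet call was lost without any 1 of WT chow replicates 3 and 5 or WT HFD replicates 2 and 5, with a range of -0.72 to -0.39. Dld averaged 8.49 ± 3.69, 5.82 ± 1.26, 5.33 ± 1.39 and 6.6 ± 1.2 FPKM in the same order of groups. Dld fell between genotypes on chow at -0.66 (SE 0.24, adjusted p = 0.032), a call lost without any 1 of WT chow replicates 1, 2 and 3 or labelled LXRα-/- chow replicates 1, 2, 4 and 5, with a range of -0.84 to -0.51. The partner subunit Pdha1 averaged 14.3 ± 4.81, 14.6 ± 1.31, 13.4 ± 2.75 and 19.5 ± 4 FPKM and did not pass in any comparison. Mpc2, at 11.1 ± 2.34, 11.9 ± 2.4, 8 ± 3.41 and 12.7 ± 3.27 FPKM, did not pass either. The kinases did not pass in any comparison. Pdk1 averaged 3.71 ± 1.58, 3.46 ± 0.268, 2.5 ± 1.07 and 3.59 ± 1 FPKM. Pdk2 had more fragments per length than Pdk1 in every group, at 49.2 ± 23.1, 53.5 ± 11.2, 42.1 ± 3.95 and 48 ± 6.98 FPKM, and ranged from 16.9 to 79.5 within WT chow.

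**Figure D3:**
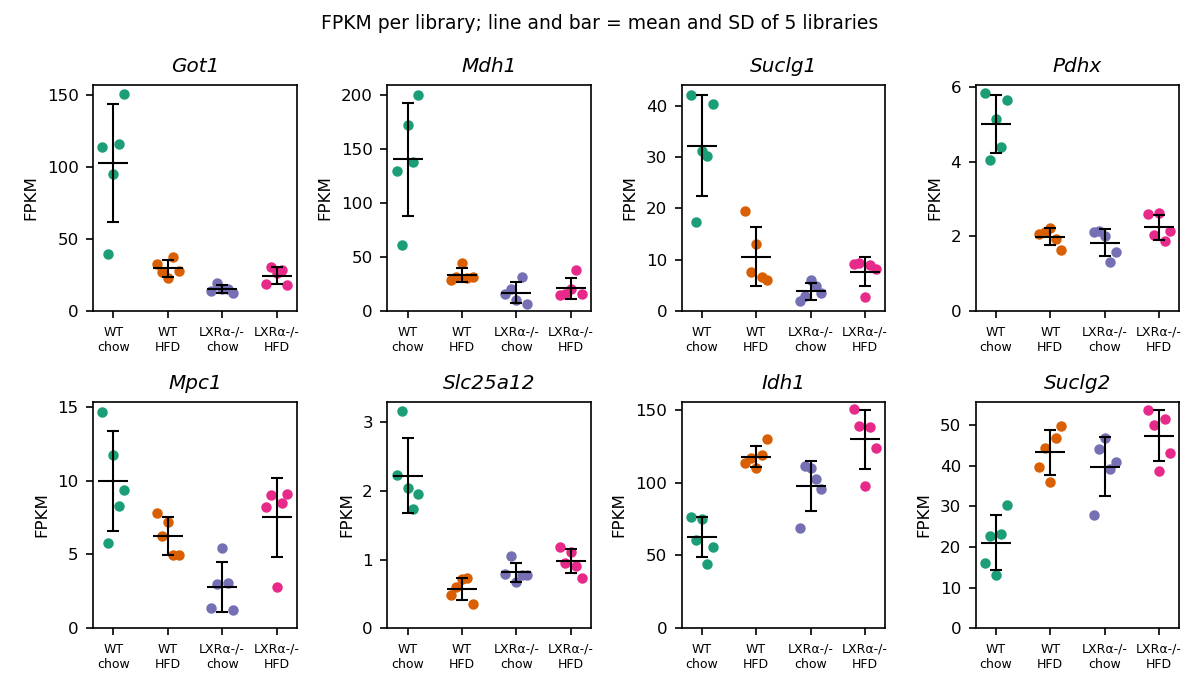
FPKM of 8 of the 32 genes is plotted by group, with 1 point per library and the line and bar giving the mean and SD of 5 libraries. Got1, Mdh1, Pdhx and Slc25a12 have all WT chow points above the other groups, Suclg1 and Mpc1 have a low point in labelled LXRα-/- on HFD at 2.82 and 2.77, and Idh1 and Suclg2 have their lowest means in WT chow.

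The 12 mitochondrial cycle enzymes held 8 genes that fell and 1, Suclg2, that rose between genotypes on chow, with a median log2 fold change of -0.93. In WT on HFD against chow, 8 fell and Suclg2 rose, with a median of -0.70. The shares of all genes that fell and rose were 21.0% and 22.3% between genotypes on chow and 15.0% and 14.3% between diets in WT. Cs encodes citrate synthase, which opens the cycle. Idh3a, Idh3b and Idh3g encode the subunits of the NAD-dependent isocitrate dehydrogenase, and Idh2 the mitochondrial NADP-dependent enzyme. Ogdh and Dlst belong to the oxoglutarate dehydrogenase complex. Suclg1 is the subunit shared by both succinyl-CoA ligases, Sucla2 the subunit of the ADP-forming and Suclg2 that of the GDP-dependent form. Fh1 is fumarase and Mdh2 the mitochondrial malate dehydrogenase.

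Suclg1 (ENSMUSG00000052738, chr6:73248382-73276911, plus strand) had the steepest fall of the cycle enzymes. It stood at 42.1, 17.3, 31.3, 30.3 and 40.4 FPKM in WT chow and 19.6, 7.7, 13.1, 6.64 and 6.12 in WT HFD. In labelled LXRα-/- livers it stood at 1.96, 2.9, 6.09, 4.92 and 3.44 on chow and 9.22, 9.39, 2.82, 8.91 and 8.11 on HFD. The genotype groups on chow did not overlap, WT HFD replicate 1 reached into the WT chow range, and labelled LXRα-/- HFD replicate 3 lay far under its group. The log2 fold changes were -3.07 (SE 0.41, adjusted p = 7.91e-06) for genotype on chow and -1.56 (SE 0.39, adjusted p = 0.00448) for diet in WT, and the interaction was 2.40 (SE 0.54, adjusted p = 0.00405). On HFD the genotype difference was -0.66 (SE 0.38, adjusted p = 0.443) and did not pass.

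The partners of Suclg1 went in opposite directions. Sucla2 (ENSMUSG00000022110, chr14:73525319-73595783, plus strand) had 12.2, 7.21, 8.43, 3.37 and 6.31 FPKM in WT chow, 4, 3.66, 4.8, 4.26 and 3.64 in WT HFD, 2.28, 3.2, 3.55, 3.26 and 3.27 in labelled LXRα-/- on chow and 5.46, 5.73, 2.97, 5.65 and 4.83 in labelled LXRα-/- on HFD. WT chow spread widely, and its replicate 4 lay within the other groups. Sucla2 fell between genotypes on chow at -1.24 (SE 0.23, adjusted p = 0.000267) and between diets in WT at -0.81 (SE 0.23, adjusted p = 0.012), with an interaction of 1.32 (SE 0.33, adjusted p = 0.00752). Suclg2 (ENSMUSG00000061838, chr6:95473009-95718800, minus strand), whose upstream sequence is printed above, had 16, 22.6, 13.1, 23.2 and 30.3 FPKM in WT chow, 39.7, 44.4, 36, 46.8 and 49.8 in WT HFD, 27.9, 44.1, 46.8, 39.1 and 40.8 in labelled LXRα-/- on chow and 53.7, 50.1, 38.6, 51.5 and 43.2 in labelled LXRα-/- on HFD. On HFD every WT library was above every WT chow library, and on chow the genotypes overlapped only through WT chow replicate 5 and labelled LXRα-/- chow replicate 1. Suclg2 rose at 0.88 (SE 0.22, adjusted p = 0.00317) for genotype on chow and 1.07 (SE 0.22, adjusted p = 0.0012) for diet in WT. Its interaction of -0.96 (SE 0.31, adjusted p = 0.0345) was lost without any 1 of WT chow replicates 1 and 3, WT HFD replicates 2, 4 and 5, labelled LXRα-/- chow replicates 3 and 5 or labelled LXRα-/- HFD replicates 3 and 5, with a range of -1.14 to -0.82. Gm15163, a pseudogene 98.9% identical to Suclg2 over 1302 bases, took 6.16% to 19.4% of their summed counts in WT chow and 0.261% to 1.28% elsewhere, and the interaction of Suclg2 did not pass once both rows were summed.

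Mdh2 (ENSMUSG00000019179, chr5:135778480-135790391, plus strand) read 64.7, 49.4, 64.6, 72.5 and 80.2 FPKM in WT chow, 59.5, 26.7, 38.9, 23 and 23.1 in WT HFD, 6.96, 10.1, 21.8, 20.5 and 11.3 in labelled LXRα-/- on chow and 25, 30.8, 11.8, 32.3 and 28.9 in labelled LXRα-/- on HFD. The genotypes did not overlap on chow, and WT HFD replicate 1 again stood within the WT chow range. Genotype on chow gave -2.25 (SE 0.36, adjusted p = 5.22e-05) on the log2 scale and the interaction was 1.64 (SE 0.48, adjusted p = 0.0217). The diet call in WT, -0.92 (SE 0.34, adjusted p = 0.0489), was lost without any 1 of 13 libraries, which were WT chow replicates 1, 3, 4 and 5, WT HFD replicates 2, 3, 4 and 5, labelled LXRα-/- chow replicate 5 or labelled LXRα-/- HFD replicates 1, 2, 4 and 5, with a range of -1.25 to -0.81.

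Idh2 (ENSMUSG00000030541, chr7:80094846-80115392, minus strand) stood at 22, 12.8, 20.2, 24.9 and 29.2 FPKM in WT chow and 17.4, 8.37, 9.68, 6.94 and 8.92 in WT HFD. The labelled LXRα-/- values were 5.56, 7.12, 12.4, 8.13 and 4.73 on chow and 10.1, 8.93, 9.24, 13.3 and 10.3 on HFD. Genotypes were apart on chow, and WT HFD replicate 1 lay within the WT chow range while the other WT HFD libraries were at or below 9.68 FPKM. Idh2 fell at -1.57 (SE 0.28, adjusted p = 0.000187) for genotype on chow and -1.05 (SE 0.28, adjusted p = 0.0074) for diet in WT, with an interaction of 1.37 (SE 0.39, adjusted p = 0.0184). A same-strand row inside the gene, Gm45203, reached at most 15.2% of their summed counts.

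Ogdh (ENSMUSG00000020456, chr11:6291633-6356642, plus strand) had 41.5, 29.8, 37.5, 50.4 and 59.2 FPKM in WT chow, 30.8, 23.2, 26.7, 21.3 and 24.1 in WT HFD, 13.9, 18.3, 18.7, 20.7 and 15.2 in labelled LXRα-/- on chow and 20.1, 20.5, 18.5, 20.5 and 20.9 in labelled LXRα-/- on HFD. It was lower in labelled LXRα-/- than in WT on both diets without overlap, at -1.36 (SE 0.19, adjusted p = 1.3e-05) on chow and -0.53 (SE 0.19, adjusted p = 0.202) on HFD, of which the second did not pass. Diet in WT gave -0.77 (SE 0.19, adjusted p = 0.00417). The interaction of 0.83 (SE 0.26, adjusted p = 0.0315) was lost without any 1 of WT chow replicates 4 and 5, WT HFD replicates 2, 3, 4 and 5, labelled LXRα-/- chow replicates 1 and 2 or labelled LXRα-/- HFD replicates 2, 4 and 5, with a range of 0.69 to 0.95. Its complex partner Dlst had the largest coefficient of variation of the 32 genes in every group except labelled LXRα-/- on chow, where Mpc1 and Mdh1 varied more. Dlst ran from 3.46 to 15.1 FPKM in WT chow, 0.956 to 7.03 in WT HFD, 1.19 to 7.5 in labelled LXRα-/- on chow and 1.05 to 8.56 in labelled LXRα-/- on HFD. Dlst did not pass in any comparison, and its standard error on the log2 scale was 0.58 for genotype on chow.

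Idh3a (ENSMUSG00000032279, chr9:54586334-54604661, plus strand) had 5.42, 5.24, 5.8, 3.17 and 3.21 FPKM in WT chow, 2.38, 3.33, 4.12, 2.23 and 3.04 in WT HFD, 2.07, 2.95, 2.86, 1.73 and 1.72 in labelled LXRα-/- on chow and 3.97, 2.62, 2.96, 4.34 and 2.5 in labelled LXRα-/- on HFD. On chow the genotypes were apart, and on HFD they overlapped. Its log2 fold change was -1.03 (SE 0.20, adjusted p = 0.000383) for genotype on chow and -0.55 (SE 0.20, adjusted p = 0.044) for diet in WT, and the second was lost without any 1 of WT chow replicates 1, 2 and 3 or WT HFD replicates 1, 4 and 5, with a range of -0.64 to -0.46. The interaction, 0.94 (SE 0.28, adjusted p = 0.0225), was lost without labelled LXRα-/- HFD replicate 4, with a range of 0.82 to 1.04. Idh3b averaged 37.2 ± 11.3, 24.5 ± 2.3, 22.7 ± 4.32 and 27.3 ± 3.27 FPKM in WT chow, WT HFD, labelled LXRα-/- on chow and labelled LXRα-/- on HFD. Idh3b fell at -0.74 (SE 0.19, adjusted p = 0.00381) and -0.57 (SE 0.19, adjusted p = 0.0275), and the diet call was lost without any 1 of WT chow replicates 4 and 5 or WT HFD replicates 2, 3, 4 and 5, with a range of -0.73 to -0.39. The neighbouring Nop56 on the opposite strand held 6.18% to 42.6% of the sum of both rows. Idh3g averaged 14 ± 3.24, 12.6 ± 0.692, 11.4 ± 1.15 and 14.1 ± 1.06 FPKM and did not pass in any comparison.

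Cs, the entry enzyme, averaged 21.7 ± 4.94 FPKM in WT chow, 25.8 ± 2.19 in WT HFD, 15.4 ± 3.23 in labelled LXRα-/- on chow and 20.5 ± 2.38 in labelled LXRα-/- on HFD. It fell between genotypes on chow at -0.52 (SE 0.18, adjusted p = 0.0267), a call lost without any 1 of WT chow replicates 4 and 5 or labelled LXRα-/- chow replicates 1, 2 and 5, with a range of -0.64 to -0.39. On HFD the labelled LXRα-/- libraries, at 19.6, 20.9, 17.1, 23.5 and 21.4 FPKM, all lay below the WT libraries, at 24.1, 29.2, 24.7, 27 and 24.3, with a log2 difference of -0.54 (SE 0.18, adjusted p = 0.186) that did not pass. Its diet difference in WT was 0.29 (SE 0.18, adjusted p = 0.262). Fh1 averaged 69.95 ± 6.7, 44.1 ± 5.08, 51.2 ± 17.2 and 53 ± 12.3 FPKM in the same order. Fh1 fell between diets in WT at -0.62 (SE 0.23, adjusted p = 0.0477), and this call was lost without any 1 of 15 libraries, all except WT chow replicate 2, WT HFD replicate 4, labelled LXRα-/- chow replicates 1 and 5 and labelled LXRα-/- HFD replicate 3, with a range of -0.70 to -0.56. Kmo, on the opposite strand, held 43.2% to 63.4% of the sum of both rows.

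The 3 cytosolic enzymes all changed in both comparisons with WT chow, Aco1 and Mdh1 downward and Idh1 upward, and all 3 had an interaction past the threshold. Of all genes, 21.0% fell and 22.3% rose between genotypes on chow, and 15.0% and 14.3% between diets in WT. The interaction was above 0 for 10.2% of all genes and below 0 for 9.12%. Aco1 is the cytosolic aconitase, which doubles as an iron regulatory protein. Idh1 is the cytosolic NADP-dependent isocitrate dehydrogenase, and Mdh1 the cytosolic malate dehydrogenase of the malate-aspartate shuttle.

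Mdh1 (ENSMUSG00000020321, chr11:21556692-21572367, minus strand) had the largest fall of all 32 genes. It read 129.6, 61.3, 173, 138 and 200.2 FPKM in WT chow and 28.4, 31.7, 44.7, 30.6 and 31.5 in WT HFD. Labelled LXRα-/- livers had 15.8, 20.6, 10.2, 31.6 and 6.42 on chow and 14.9, 16.2, 20.8, 37.9 and 15.4 on HFD. Every WT chow library was above every other, with replicate 2 the lowest of them. The log2 fold change was -3.09 (SE 0.39, adjusted p = 4.48e-06) for genotype on chow, 8.52-fold lower, and -2.05 (SE 0.37, adjusted p = 0.00039) for diet in WT. The interaction was 2.23 (SE 0.51, adjusted p = 0.00483), and the genotype difference on HFD, -0.86 (SE 0.36, adjusted p = 0.275), did not pass.

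Idh1 (ENSMUSG00000025950, chr1:65158616-65186500, minus strand) ran the other way, at 76.3, 60.3, 75.3, 44 and 56 FPKM in WT chow, 113, 117, 110.3, 119 and 129.8 in WT HFD, 68.9, 111, 110.3, 102 and 95.3 in labelled LXRα-/- on chow and 150.1, 139, 97.8, 138 and 123 in labelled LXRα-/- on HFD. The diets did not overlap in WT, and on chow the genotypes met through labelled LXRα-/- chow replicate 1. Idh1 rose at 0.64 (SE 0.16, adjusted p = 0.003) for genotype on chow and 0.98 (SE 0.16, adjusted p = 0.000158) for diet in WT. Its interaction, -0.71 (SE 0.23, adjusted p = 0.0313), was lost without any 1 of WT chow replicates 4 and 5, WT HFD replicates 2, 4 and 5, labelled LXRα-/- chow replicates 3 and 5 or labelled LXRα-/- HFD replicate 5, with a range of -0.81 to -0.62.

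Aco1 (ENSMUSG00000028405, chr4:40143081-40198338, plus strand) stood at 42, 21.9, 38.7, 51.3 and 57.1 FPKM in WT chow, 25.8, 19.2, 25.6, 21.9 and 23 in WT HFD, 12.5, 22, 20.2, 18.8 and 13 in labelled LXRα-/- on chow and 23.3, 23.7, 18.2, 22 and 24.7 in labelled LXRα-/- on HFD. WT chow replicate 2 fell within the other groups, and the remaining 4 WT chow libraries were above them. The log2 differences were -1.34 (SE 0.22, adjusted p = 7.16e-05) for genotype on chow, -0.85 (SE 0.22, adjusted p = 0.00567) for diet in WT and 1.09 (SE 0.30, adjusted p = 0.0159) for the interaction.

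Among the 8 shuttle genes, 5 fell and 1 rose between genotypes on chow and 4 fell between diets in WT, with medians of -0.91 and -0.52. Of all genes, 21.0% fell and 22.3% rose in the first comparison, and 15.0% and 14.3% in the second. Got1 and Got2 encode the cytosolic and mitochondrial aspartate aminotransferases, and Glud1 glutamate dehydrogenase. Slc25a11 is the oxoglutarate carrier, and Slc25a12 and Slc25a13 are the aspartate-glutamate carriers, of which Slc25a13 is the form typical of liver. Slc25a1 exports citrate and Slc25a10 exchanges dicarboxylates.

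Got1 (ENSMUSG00000025190, chr19:43499752-43524605, minus strand) had the smallest p over the 4 groups of all 32 genes. Its FPKM was 114, 39.5, 95.1, 116 and 151 in WT chow, 32.5, 26.9, 22.9, 37.9 and 27.9 in WT HFD, 13.9, 19.6, 15.4, 15.1 and 12.4 in labelled LXRα-/- on chow and 18.5, 30.6, 26.8, 28.8 and 18.1 in labelled LXRα-/- on HFD. WT chow was above all other libraries, with replicate 2 nearest to WT HFD replicate 4, and the other groups reached at most 37.9 FPKM. Genotype on chow gave -2.79 (SE 0.28, adjusted p = 4.9e-07) on the log2 scale, 6.93-fold lower, and diet in WT -1.76 (SE 0.27, adjusted p = 8.37e-05). The interaction was 2.31 (SE 0.38, adjusted p = 0.000373). On HFD the genotype difference of -0.48 (SE 0.27, adjusted p = 0.419) did not pass.

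Slc25a12 (ENSMUSG00000027010, chr2:71271063-71367749, minus strand) was the least abundant gene of the set per length, at 2.23, 3.16, 2.04, 1.74 and 1.96 FPKM in WT chow, 0.484, 0.607, 0.718, 0.728 and 0.347 in WT HFD, 0.791, 1.05, 0.674, 0.783 and 0.778 in labelled LXRα-/- on chow and 1.18, 0.948, 1.11, 0.913 and 0.731 in labelled LXRα-/- on HFD. In FPKM, WT chow was above all other libraries, and on HFD every labelled LXRα-/- library was above every WT library. It fell at -1.46 (SE 0.20, adjusted p = 1.12e-05) for genotype on chow and -1.90 (SE 0.20, adjusted p = 3.14e-06) for diet in WT, with an interaction of 2.01 (SE 0.28, adjusted p = 0.000116). With TMM scaling in edgeR the genotype difference on HFD was 0.55 (SE 0.20, adjusted p = 0.209) and did not pass. Slc25a13 (ENSMUSG00000015112, chr6:6041218-6217173, minus strand) read 39.95, 18.6, 28.4, 25.6 and 32.6 FPKM in WT chow, 15.1, 14.5, 16, 14.2 and 16.2 in WT HFD, 13.3, 18, 16.9, 14.3 and 14.5 in labelled LXRα-/- on chow and 24.9, 23.3, 14.8, 22.4 and 21.9 in labelled LXRα-/- on HFD. WT chow was above WT HFD and labelled LXRα-/- on chow in every library and overlapped labelled LXRα-/- on HFD. The log2 fold changes of Slc25a13 were -0.93 (SE 0.17, adjusted p = 0.0002) and -0.88 (SE 0.17, adjusted p = 0.000601), and its interaction was 1.22 (SE 0.24, adjusted p = 0.00144).

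Slc25a11 (ENSMUSG00000014606, chr11:70644196-70647058, minus strand) showed 39.2, 27.2, 33.9, 38.4 and 48.1 FPKM in WT chow, 23.1, 19.1, 23.4, 19.1 and 20.1 in WT HFD, 13.6, 17.1, 17.6, 18.8 and 13.5 in labelled LXRα-/- on chow and 21.3, 22.6, 19.3, 22 and 18.6 in labelled LXRα-/- on HFD. All WT chow libraries were above the other 15. It fell at -1.24 (SE 0.15, adjusted p = 4.45e-06) for genotype on chow and -0.80 (SE 0.15, adjusted p = 0.000637) for diet in WT, and the interaction was 1.02 (SE 0.22, adjusted p = 0.00284).

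Got2 averaged 148 ± 38 FPKM in WT chow, 122 ± 18.7 in WT HFD, 80.7 ± 24.4 in labelled LXRα-/- on chow and 107 ± 20.8 in labelled LXRα-/- on HFD (SD, n = 5 each). It fell between genotypes on chow at -0.89 (SE 0.24, adjusted p = 0.00583) and did not pass elsewhere. Got2-ps1, 99.1% identical over 1293 bases, took 1.1% to 2.78% of the summed counts in WT chow and at most 0.663% in the other groups. Glud1, at 119 ± 19.3, 103 ± 5.93, 106 ± 30.01 and 133 ± 9.76 FPKM, did not pass in any comparison. On HFD all Glud1 FPKM values of labelled LXRα-/- livers were above those of WT. The edgeR log2 difference, with TMM scaling, was 0.16 (SE 0.17, adjusted p = 0.71). Library totals in place of TMM moved the median of all genes in this comparison from 0.03 to 0.23. An upward separation in FPKM on HFD thus depends in part on the scaling, and the share of all genes so separated was not counted. The citrate exporter Slc25a1 averaged 101 ± 29.6, 137 ± 13.2, 106 ± 22.1 and 123 ± 11.9 FPKM and did not pass in any comparison. The dicarboxylate carrier Slc25a10 averaged 55.8 ± 18.3, 78 ± 19.3, 91.6 ± 19.1 and 115 ± 20.6 FPKM. Slc25a10 rose between genotypes on chow at 0.68 (SE 0.25, adjusted p = 0.0367), and this call was lost without any 1 of WT chow replicates 1, 2 and 3 or labelled LXRα-/- chow replicates 3 and 4, with a range of 0.50 to 0.82.

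**Figure D4:**
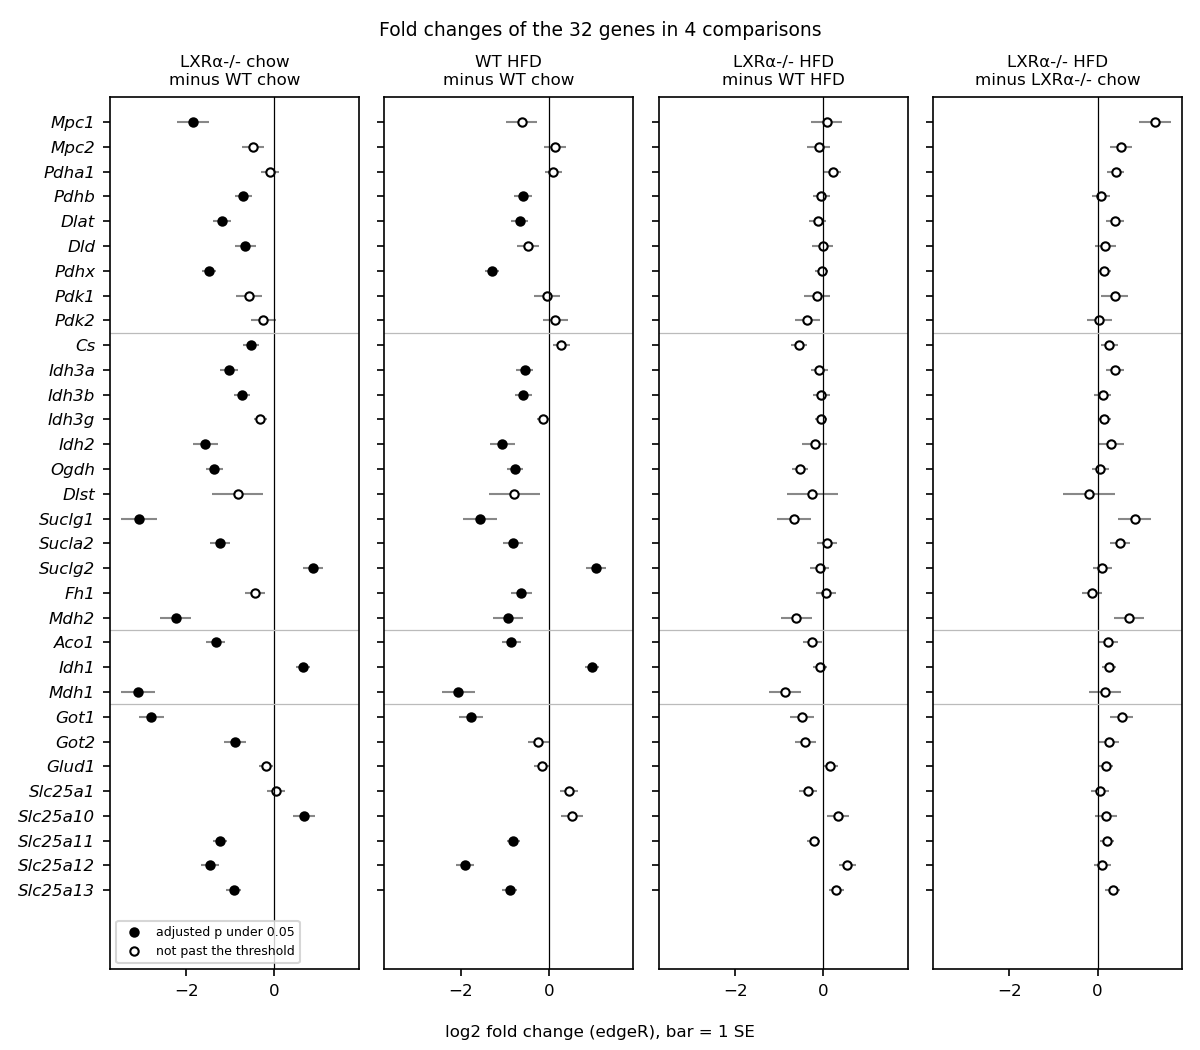
The log2 fold changes of the 32 genes from edgeR are plotted with bars of 1 SE for 4 comparisons of groups by their labels, filled where the adjusted p was under 0.05. Most points lie left of 0 in the panels that use WT chow, with Idh1 and Suclg2 to the right in both, and no point is filled in the other panels.

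Ratios between paired genes within a library do not depend on the scaling between libraries, and they are given without a test. Idh1 exceeded Idh2 by a log2 ratio of 1.54 ± 0.63 in WT chow, 3.60 ± 0.54 in WT HFD, 3.75 ± 0.44 in labelled LXRα-/- on chow and 3.64 ± 0.27 in labelled LXRα-/- on HFD (SD, n = 5 each). All 5 WT chow libraries, at 0.82 to 2.24, were below the other 15, at 2.70 or more. The FPKM ratio of Idh1 to Idh2, the NADP-dependent enzymes, thus went from 2.91 in WT chow to between 12.1 and 13.4 in the other groups, as geometric means. It leaves out the mitochondrial NAD-dependent enzyme of Idh3a, Idh3b and Idh3g. Got1 over Got2 went the opposite way, with a log2 ratio of -0.60 ± 0.35 in WT chow, -2.05 ± 0.33 in WT HFD, -2.36 ± 0.48 in labelled LXRα-/- on chow and -2.13 ± 0.39 in labelled LXRα-/- on HFD, and WT chow was above all other libraries. Sucla2 over Suclg2 was -1.55 ± 1.02 in WT chow and -3.41 ± 0.33, -3.67 ± 0.08 and -3.30 ± 0.24 in WT HFD, labelled LXRα-/- on chow and labelled LXRα-/- on HFD. WT chow was again above the rest, but narrowly, with replicate 4 at -2.785 against WT HFD replicate 3 at -2.906. The pseudogene Gm15163 took more of the summed counts with Suclg2 in WT chow than elsewhere. The Sucla2 to Suclg2 ratio was not taken with both rows summed, so this separation is uncertain. Among the 4 groups this ratio spread most in WT chow, from -2.78 to -0.40.

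The groups overlapped for the malate dehydrogenases, both of which fell. Mdh1 over Mdh2 had a log2 ratio of 0.997 ± 0.435 in WT chow, 0.05 ± 0.63 in WT HFD, 0.18 ± 1.07 in labelled LXRα-/- on chow and -0.30 ± 0.79 in labelled LXRα-/- on HFD, and all pairs of groups compared overlapped. Mpc1 over Mpc2 was -0.19 ± 0.28 in WT chow, -0.94 ± 0.14 in WT HFD, -1.61 ± 0.44 in labelled LXRα-/- on chow and -0.83 ± 0.40 in labelled LXRα-/- on HFD, with WT chow apart from both groups it was compared with. Slc25a12 over Slc25a13 was -3.69 ± 0.65 in WT chow, -4.77 ± 0.50 in WT HFD, -4.25 ± 0.23 in labelled LXRα-/- on chow and -4.46 ± 0.44 in labelled LXRα-/- on HFD, and only the diets in WT were apart. For Pdk1 over Pdk2, Pdha1 over Pdhb, and Idh3a over Idh3b or Idh3g, the groups overlapped in all 4 comparisons, with differences in log2 ratio from -0.73 to 0.69.

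**Figure D5:**
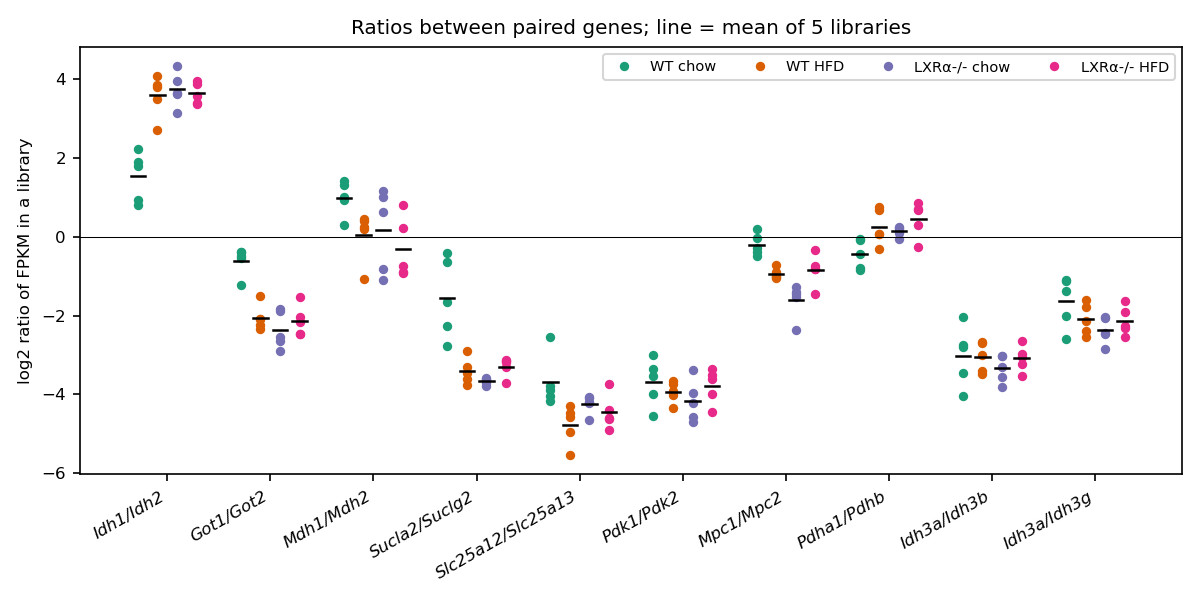
The y axis is the log2 ratio of the FPKM of 2 genes in the same library for 10 pairs, with 1 point per library and a line at the mean of 5 libraries. WT chow stands below the other groups for Idh1 over Idh2 and above them for Got1 over Got2 and, narrowly, for Sucla2 over Suclg2. It overlaps them for Mdh1 over Mdh2.

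In the comparisons that leave out WT chow none of the 32 genes passed the threshold. Between genotypes on HFD the 32 log2 fold changes ran from -0.86 for Mdh1 to 0.55 for Slc25a12, with standard errors of 0.15 to 0.58, adjusted p from 0.186 to 0.989 and 24 of 32 below 0. Their median of -0.10, against 0.03 over all genes, turned to 0.11 with library totals, which moved the median of all genes to 0.23, so no direction is given. The genes with an unadjusted p under 0.05 were Cs, Ogdh, Slc25a12 and Mdh1. Between diets in labelled LXRα-/- the values ran from -0.19 for Dlst to 1.303 for Mpc1, with adjusted p from 0.482 to 0.999 and a median of 0.23 against -0.01 over all genes. The values were above 0 for 30 of 32 genes, and the genes with an unadjusted p under 0.05 were Mpc1, Sucla2, Suclg1, Pdha1, Mpc2 and Mdh2. Labelled LXRα-/- HFD replicate 3 held the lowest value of its group for Mpc1, 2.77 FPKM against 8.2 to 9.11, and for Suclg1, 2.82 against 8.11 to 9.39. That library had a clock measure of -1.28 against -7.19 to -5.94 in its group and a mitochondrially encoded share of 19.9%, and their part in its values was not tested.

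Other genes of the pathway moved with the same groups. Of 25 related genes outside the set, 11 fell and none rose between genotypes on chow, where 21.0% of all genes fell and 22.3% rose. Between diets in WT 8 fell and 1 rose, against 15.0% and 14.3% of all genes. None passed between genotypes on HFD or between diets in labelled LXRα-/-, in which 3 and 0 had an unadjusted p under 0.05, against 2688 and 1278 of all 18905 genes. The interaction was above 0 for 6 and below 0 for 1, against 10.2% and 9.12% of all genes. The succinate dehydrogenase subunit Sdha averaged 72.7 ± 21 FPKM in WT chow, 28.9 ± 3.9 in WT HFD, 23.2 ± 6 in labelled LXRα-/- on chow and 29.5 ± 5.92 in labelled LXRα-/- on HFD. Sdhd averaged 136 ± 34.5, 40.2 ± 11.2, 23.2 ± 6.02 and 32.4 ± 6.16 FPKM in the same order. Both subunits fell between genotypes on chow, at -1.65 (SE 0.21, adjusted p = 6.35e-06) and -2.57 (SE 0.24, adjusted p = 2.19e-07). Pcx, the pyruvate carboxylase that feeds oxaloacetate to the cycle, averaged 139 ± 29.1, 64.4 ± 7.61, 44.1 ± 14.1 and 61.3 ± 12.1 FPKM and fell at -1.66 (SE 0.23, adjusted p = 1.63e-05). Me1, the cytosolic malic enzyme, averaged 47.1 ± 30.1, 6.58 ± 3.82, 2.96 ± 1.61 and 4.92 ± 1.84 FPKM and fell at -4.03 (SE 0.53, adjusted p = 7.1e-06). Pdpr, a regulatory subunit of pyruvate dehydrogenase phosphatase, was at 0.593 ± 0.219, 0.072 ± 0.0359, 0.107 ± 0.0593 and 0.0869 ± 0.031 FPKM, with a fall of -2.44 (SE 0.45, adjusted p = 0.000235).

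The kinase Pdk4, known to rise in fasting and fat feeding, was the related gene that rose between diets in WT, at 1.68 (SE 0.38, adjusted p = 0.00237). Its levels were 0.358 ± 0.118 FPKM in WT chow, 1.12 ± 0.437 in WT HFD, 0.45 ± 0.23 in labelled LXRα-/- on chow and 0.524 ± 0.225 in labelled LXRα-/- on HFD. The genotype difference of Pdk4 on HFD was -1.297 (SE 0.38, adjusted p = 0.129) and did not pass, and its interaction was -1.58 (SE 0.53, adjusted p = 0.0403). Of 19 genes of mitochondrial biogenesis and import, 7 fell and 4 rose between genotypes on chow, where 21.0% of all genes fell and 22.3% rose. Between diets in WT 5 fell and 3 rose, and of all genes 15.0% fell and 14.3% rose. The shares of the 19 that rose were near those of all genes. None passed in the other comparisons of groups, in which 2 and 1 had an unadjusted p under 0.05. Hspa9, the matrix chaperone of protein import, fell at -1.55 (SE 0.21, adjusted p = 9.12e-06) on chow, and the outer membrane channel Vdac2 at -1.08 (SE 0.15, adjusted p = 1.7e-05). Nrf1, a transcription factor of nuclear genes for mitochondria, rose at 1.22 (SE 0.17, adjusted p = 9.94e-06).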

How the data were processed

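RNA was measured in 20 libraries, 5 for each of 4 groups given by the sample titles, from poly(A)-selected RNA sequenced in pairs, per the labels' protocols. No label ties a library to an animal or a batch, so a p-value here reflects differences among libraries, which may be technical. The deposited table holds whole-number counts per gene and, beside them, FPKM, per the file headers. A count of 0 is listed there at an FPKM of 0.0001. HISAT2 2.0, StringTie 1.3.0, Bowtie 0.12.2 and the build mm8 are listed in the submitters' processing notes without roles. Which program counted the reads is not stated. Coordinates are those of the deposited table, and those of 28 of the 32 genes equal the GENCODE annotation of GRCm38.

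Counts were tested with edgeR 4.0.16 in R 4.3.3 (filterByExpr, TMM factors, quasi-likelihood F test, 1 mean per group, all 20 libraries), two-sided, with Benjamini-Hochberg adjustment over 18905 genes and a threshold of 0.05. The SE was derived from the F statistic. The procedure was tested on simulated counts in which few genes changed and the groups shared the same mitochondrially encoded share. Such a simulation cannot show how the procedure behaves under the differences in composition of these data. FPKM was used for levels and within-library ratios. Totals of 75549139 to 108889938 counts leave counting error small beside the spread between libraries. Alternatives included DESeq2 1.42.0 and limma 3.58.1 on log2(FPKM + 1). Pseudogenes were taken as copies with at least 80% identity over at least 200 bases and 80% of the pseudogene, in a blastn search of transcripts, which found 16 for 10 of the genes.

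The 32 genes and the gene lists were chosen with earlier results of these data known. All 32 genes are named by role. Values in every library are given for those with the 10 smallest p over the 4 groups and for those past the threshold in the interaction, in labelled LXRα-/- or on HFD. Of the related and import lists, the genes named are those with the smallest p over the 4 groups, with Pdk4 and Pcx, except 1 that is not reported here. Pseudogenes and overlapping genes were named after their values were seen.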

Additional observations from a re-analysis of the deposited data

Results flagged for a closer look

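In 9 of 128 combinations of gene and group, 1 library lay far from the other 4 of its group, where chance gives about 1 in 20. WT HFD replicate 1 was the highest for Idh2, at 17.4 FPKM against 6.94 to 9.68, and for Got2, at 155 against 107 to 118. Labelled LXRα-/- HFD replicate 3 was the lowest for Suclg1, at 2.82 FPKM against 8.11 to 9.39, and for Mpc1, at 2.77 against 8.2 to 9.11. Mdh1 was high in WT HFD replicate 3, at 44.7 FPKM against 28.4 to 31.7, and in labelled LXRα-/- HFD replicate 4, at 37.9 against 14.9 to 20.8. Dlst was high in WT chow replicate 3, at 15.1 FPKM against 3.46 to 6.43. Pdk2 was high in WT HFD replicate 5, at 73 FPKM against 46.5 to 53.4. Sucla2 was low in labelled LXRα-/- chow replicate 1, at 2.28 FPKM against 3.2 to 3.55.

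The genotype difference itself differed between the diets, by the interaction term of edgeR, for 17 genes. It was above 0 for 15 and below 0 for 2, against 10.2% and 9.12% of all genes. The calls of Idh1, Suclg2, Ogdh and Idh3a were lost on leaving out single libraries, as given above. On the log2 scale it was 2.40 for Suclg1, 2.31 for Got1, 2.23 for Mdh1, 2.01 for Slc25a12 and 1.92 for Mpc1. It was 1.64 for Mdh2, 1.44 for Pdhx, 1.37 for Idh2, 1.32 for Sucla2, 1.22 for Slc25a13 and 1.09 for Aco1. The smaller values above 0 were 1.06 for Dlat, 1.02 for Slc25a11, 0.94 for Idh3a and 0.83 for Ogdh. Below 0 were Idh1 at -0.71 and Suclg2 at -0.96.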

How the results depend on the processing

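Of the 160 log2 fold changes, 32 genes in 5 comparisons, all 160 kept their direction and side of the threshold with DESeq2, and 151 to 159 did so under the other scalings, filters, limma fits and the sum with pseudogenes, which was chosen after seeing the data. Fits to only the groups compared kept 122 of 128 and were not made for the interaction, which needs all groups. With the mitochondrially encoded share as a covariate, every call among the 32 genes was lost, 49 with the same sign and 10 with the opposite one. The counts were 0 higher and 0 lower for genotype on chow, diet in WT and the interaction, in which 1 of all 18905 genes was called. In that fit the sign turned for genotype on chow at Idh2 (0.17), Dld (0.10), Mdh2 (0.26), Got2 (0.31) and Slc25a10 (-0.032). It also turned for diet in WT at Idh2 (0.21), Suclg1 (0.31) and Mdh2 (0.91), and for the interaction at Idh2 (-0.15) and Mdh2 (-0.57), all on the log2 scale. The share separates WT chow from the other groups, so the group and the share cannot be told apart in that fit. With the clock measure as a covariate, 4 genes were lower for diet in WT and 3 higher and 0 lower for the interaction, while all genes gave 918 higher and 1047 lower, and 381 and 359. Within WT the clock measure did not overlap between the diets, so the clock and the diet cannot be told apart there. The 2 genes with an interaction below 0 became 1 with library totals, with limma at either pseudocount (1 or 0.1) and with pseudogenes summed, and 0 without a filter, and the cause was not tested. Leaving out each library in turn gave 2 to 3 higher and 18 to 22 lower for genotype on chow, 2 to 3 and 12 to 17 for diet in WT, and 13 to 17 and 0 to 2 for the interaction. Neither the genotypes on HFD nor the diets in labelled LXRα-/- had a gene past the threshold (0) in any of these, nor under the 13 other alternatives. With the replicate number as a block, the counts were 3 higher and 19 lower for genotype on chow, 2 and 13 for diet in WT, and 14 and 1 for the interaction. The numbers do not pair the libraries, since 0 of 30 pairs had a correlation of deviations over 0.1 (r from -0.135 to 0.0896) and 4 of 20 libraries correlated best with their own number.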

Other observations

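Nnt, the transhydrogenase that makes NADPH in the mitochondrial inner membrane, has 2 overlapping rows in the deposited table, and it was chosen here after its values were seen. ENSMUSG00000116207 held 1886 to 2638 counts in the 5 WT chow libraries and 1750 in WT HFD replicate 2, and it was at 0 in the other 14 libraries. ENSMUSG00000025453 went the other way, with 125 to 155 counts in WT chow, 63 in WT HFD replicate 2 and 210 to 3568 in the other 14. Summed, the rows held 2011 to 2789 counts in WT chow, 210 to 3044 in WT HFD, 1568 to 3079 in labelled LXRα-/- on chow and 529 to 3568 in labelled LXRα-/- on HFD, so the groups overlapped. Since the rows overlap, the split of reads between them is uncertain, and Nnt was left out of the counts of related genes.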
